A study of Homo sapiens with 6 samples.

Results

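BASP1, MARCKS, MARCKSL1 and GAP43 form a small group of membrane-bound proteins, and their transcript levels were compared after an siRNA against the long noncoding RNA SNHG17. The group was defined by gene symbol, and its 4 genes were all found among the 58243 gene rows of the count table. It was put together with the difference between the siRNA groups already known, so the changes of these 4 genes are given as a description, with no p-value. Of the 4, 3 had enough counts to be tested among 18679 genes, and GAP43 did not.

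The cells carry the label Hep3B, a human hepatocellular carcinoma line, grown in DMEM with 10% serum. The first group received si-SNHG17-1, an siRNA directed at SNHG17, and the other si-NC, its control, by transfection, and 3 libraries of total RNA were made from each. Neither the time after transfection nor the origin of the replicates (separate cultures or not) is given in the labels, and p-values therefore reflect the spread of these libraries alone, which may be technical. A single siRNA sequence stands for the knockdown, and changes that belong to SNHG17 cannot be told apart from others caused by that sequence.

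BASP1 (brain acid soluble protein), MARCKS (myristoylated alanine-rich C-kinase substrate), MARCKSL1 (its smaller relative) and GAP43 (growth-associated protein) sit on the inner face of the plasma membrane. BASP1, MARCKS and MARCKSL1 are held there by an N-terminal myristoyl group and GAP43 by palmitoylation, together with a basic stretch of residues. That stretch binds the phospholipid PIP2 and the calcium sensor calmodulin, and its phosphorylation by protein kinase C releases it. The proteins link membrane lipids to the actin cytoskeleton and are best known from growing axons. BASP1 also enters the nucleus, where it acts as a corepressor of the transcription factor WT1.

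The promoter windows of the 4 genes are shown because the RefSeq start of BASP1, the gene with the largest change, lies inside another annotated gene. In addition, the windows of BASP1, MARCKS and MARCKSL1 hold more CpG dinucleotides than that of GAP43. Each window runs from 250 bases before to 50 bases after the transcription start (RefSeq, GRCh38.p14), reads 5′ to 3′ on the gene's strand, and has the GC box GGGCGG of either strand in capitals.
BASP1 (chr5:17216573-17216872, plus strand): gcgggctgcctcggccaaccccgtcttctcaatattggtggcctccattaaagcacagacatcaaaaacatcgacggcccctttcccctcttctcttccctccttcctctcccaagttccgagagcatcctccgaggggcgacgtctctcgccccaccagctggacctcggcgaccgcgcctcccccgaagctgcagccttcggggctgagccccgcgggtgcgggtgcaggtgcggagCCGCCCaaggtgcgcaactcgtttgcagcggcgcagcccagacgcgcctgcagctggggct
MARCKS (chr6:113857095-113857394, plus strand): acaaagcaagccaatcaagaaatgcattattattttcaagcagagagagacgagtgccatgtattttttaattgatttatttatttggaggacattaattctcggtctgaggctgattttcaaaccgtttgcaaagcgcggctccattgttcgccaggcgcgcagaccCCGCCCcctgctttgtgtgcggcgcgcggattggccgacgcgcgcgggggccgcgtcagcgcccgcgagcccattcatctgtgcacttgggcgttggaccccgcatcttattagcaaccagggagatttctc
MARCKSL1 (chr1:32336184-32336483, minus strand): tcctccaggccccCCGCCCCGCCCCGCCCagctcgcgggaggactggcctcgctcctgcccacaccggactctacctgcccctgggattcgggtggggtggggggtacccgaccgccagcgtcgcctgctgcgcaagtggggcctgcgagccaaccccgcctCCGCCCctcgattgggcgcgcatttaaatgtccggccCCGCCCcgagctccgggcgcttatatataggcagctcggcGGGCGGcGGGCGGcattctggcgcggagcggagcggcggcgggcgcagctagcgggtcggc
GAP43 (chr3:115623260-115623559, plus strand): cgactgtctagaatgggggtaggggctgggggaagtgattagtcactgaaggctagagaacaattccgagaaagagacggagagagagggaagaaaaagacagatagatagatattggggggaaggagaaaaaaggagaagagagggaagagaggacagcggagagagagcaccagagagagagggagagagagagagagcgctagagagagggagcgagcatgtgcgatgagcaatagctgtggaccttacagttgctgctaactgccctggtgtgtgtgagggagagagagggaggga

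The windows of BASP1, MARCKS and MARCKSL1 held 27, 25 and 38 CpG dinucleotides, and that of GAP43 held 7, where the median of 35114 RefSeq promoters was 14. Their GC content was 66.7%, 53.0% and 75.0%, and 52.7% in GAP43. The GC box occurred once in BASP1, once in MARCKS and 7 times in MARCKSL1, where 3 copies overlapped one another by a single base. It was not found in the GAP43 window, and 45.0% of all promoters held it on either strand. The motif TATANA was found only in MARCKSL1 among these windows, as 2 overlapping matches whose first bases lie at −30 and −28 from the start, against 19.0% of all promoters. CCAAT was found on either strand in all 4 windows, 2 times in MARCKS, against 34.6% of all promoters, and the E-box CACGTG in none of the 4, against 7.26%. No GC box overlapped a TATANA or CCAAT match. A match is a string of letters and was not tested as a binding site.

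**Figure D1:**
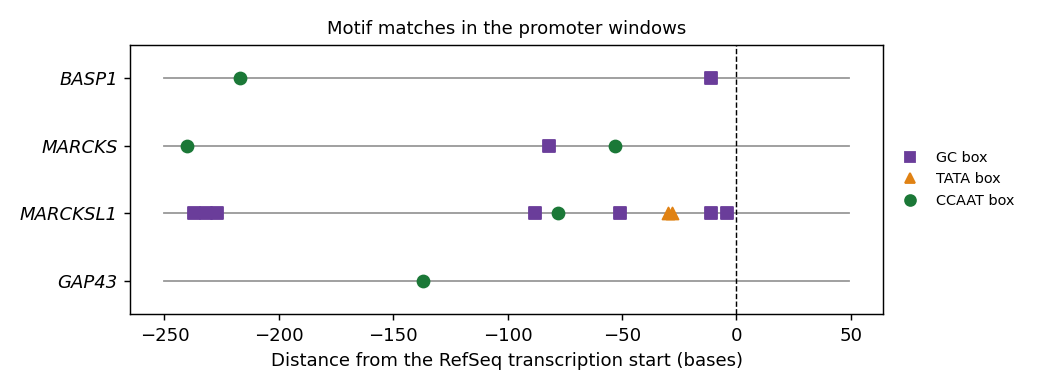
Matches of the GC box, TATANA and CCAAT on either strand in the promoter windows of the 4 genes, placed by their first base relative to the RefSeq transcription start at 0 (bases). MARCKSL1 holds 7 GC boxes, BASP1 and MARCKS hold 1 each, and GAP43 holds none.

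Counts were scaled to CPM (counts relative to library size, with TMM factors), and edgeR's quasi-likelihood test was run over all 18679 genes, a gene being called at a Benjamini-Hochberg adjusted p under 0.05. Total counts ranged from 30207055 to 42271168 per library. On the second principal component of log2 CPM (19.1% of variance) si-NC replicate 1 stood apart, at a score of 57.3, where the si-SNHG17-1 libraries had −0.998 to 12.0 and the si-NC replicates 2 and 3 had −28.7 and −42.2. On the third (18.2% of variance) si-SNHG17-1 replicate 3 stood apart, at 57.0, where the other libraries had −37.7 to 9.77. SNHG17 itself stood at 8.11 ± 0.139 CPM in si-SNHG17-1 and 23.0 ± 0.789 CPM in si-NC libraries (SD, n = 3 each), 35.2% of the control level. The liver markers AFP, ALB, APOA1, APOB, TTR and GPC3 were each under 1 CPM in every library and summed to 1.04 to 1.54 CPM in si-SNHG17-1 and 0.933 to 1.33 CPM in si-NC, with TTR and GPC3 at 0 counts throughout, so the cells are called here only by their label. Of 13 neuron markers 5 (STMN2, NEFL, ELAVL4, DCX and UCHL1) had no count in any library. The highest were TUBB3 (16.9 CPM in si-SNHG17-1 and 13.3 CPM in si-NC), SNAP25 (8.01 and 9.55 CPM) and MAP2 (7.28 and 6.53 CPM, both in the same order). The neuron list summed to 29.9 to 35.9 CPM in si-SNHG17-1 and 24.8 to 38.1 CPM in si-NC. Of its 5 tested genes 0 were called by edgeR, where 10.5% of all genes tested were, and 0 had an unadjusted edgeR p under 0.05.

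BASP1 was the most abundant member in every library and had the largest change. Its counts were 20117, 24196 and 16581 in si-SNHG17-1 libraries, against 55406, 56887 and 56424 in si-NC libraries. In CPM these were 526, 574 and 539.8 in si-SNHG17-1, against 1470.5, 1363 and 1423 in si-NC. All 3 si-SNHG17-1 libraries lay far below the lowest si-NC library, and replicates of a group differed little. BASP1 fell to 547 ± 24.7 CPM in si-SNHG17-1, against 1419 ± 54.1 CPM in si-NC (SD, n = 3 each), 38.5% of the control level. This was 2.59-fold lower, a log2 fold change of −1.38 (SE 0.06). From bulk RNA, fewer cells that express the gene and less of its RNA per cell cannot be told apart.

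MARCKS, a major protein kinase C substrate that sequesters PIP2 and cross-links actin, had counts of 8634, 8837 and 6280 in si-SNHG17-1 and 8051, 12142 and 10391 in si-NC. Its levels were 226, 209.8 and 204 CPM in si-SNHG17-1 and 214, 291 and 262 CPM in si-NC. The groups overlapped, since si-NC replicate 1 lay among the si-SNHG17-1 libraries while si-NC replicates 2 and 3 lay above all of them. The means were 213 ± 11.2 CPM in si-SNHG17-1 and 256 ± 39.0 CPM in si-NC (SD, n = 3 each), a log2 fold change of −0.26 (SE 0.12). MARCKS was not called by edgeR with all libraries. Without si-NC replicate 1 the log2 fold change was −0.37 and the gene was called lower, and without si-NC replicate 2 it was −0.16. Of the 6 fits that omit a library, 1 called MARCKS. Calls of the members are a description and not a test, since these genes were chosen with this contrast known.

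MARCKSL1, the smaller relative with the same myristoyl anchor and basic domain, had counts of 2767, 3075 and 2175 in si-SNHG17-1 and 3181, 3382 and 3697 in si-NC. Its levels were 72.4, 73.0 and 70.8 CPM in si-SNHG17-1 and 84.4, 81.0 and 93.2 CPM in si-NC. The groups did not overlap, but their distance was small. The means were 72.1 ± 1.13 CPM in si-SNHG17-1 and 86.2 ± 6.31 CPM in si-NC (SD, n = 3 each), and the log2 fold change was −0.26 (SE 0.08). MARCKSL1 was not called by edgeR with all libraries or in any fit with a library left out, which is likewise a description. The processed copies MARCKSL1P1 and MARCKSL1P2 held at most 10 counts in a library and BASP1P1 held 0, so few reads were listed under these copies.

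GAP43, an axonal protein, had 0 counts in all 3 si-SNHG17-1 libraries and 4, 0 and 0 counts in si-NC. A count of 0 allows up to 0.0712 to 0.0977 CPM in the si-SNHG17-1 libraries, taking 3 counts as the floor for counting error only. The 4 counts of si-NC replicate 1 correspond to 0.106 CPM. GAP43 was thus at or near the floor in every library, and no fold was computed.

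Of the 3 tested members 1 was called lower, and over all 18679 genes tested 5.21% were called lower, 5.25% higher and 10.5% in either direction (980 higher and 974 lower, or 1168 and 781 with scaling by total counts). The groups did not overlap, with si-SNHG17-1 lower, for 2 of the 3 members, as they did for 17.3% of all genes tested. These counts rest on the contrast known when the genes were chosen. Without si-SNHG17-1 replicate 3, the library apart on the third component, the log2 fold changes of BASP1, MARCKS and MARCKSL1 were −1.35, −0.22 and −0.23. Without si-NC replicate 1, apart on the second, they were −1.35, −0.37 and −0.27. By log2 fold change, 1.46% of tested genes lay below BASP1, 25.3% below MARCKS and 25.5% below MARCKSL1. MARCKS and MARCKSL1 thus sat near the lower quartile of all genes, which was −0.27.

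**Figure D2:**
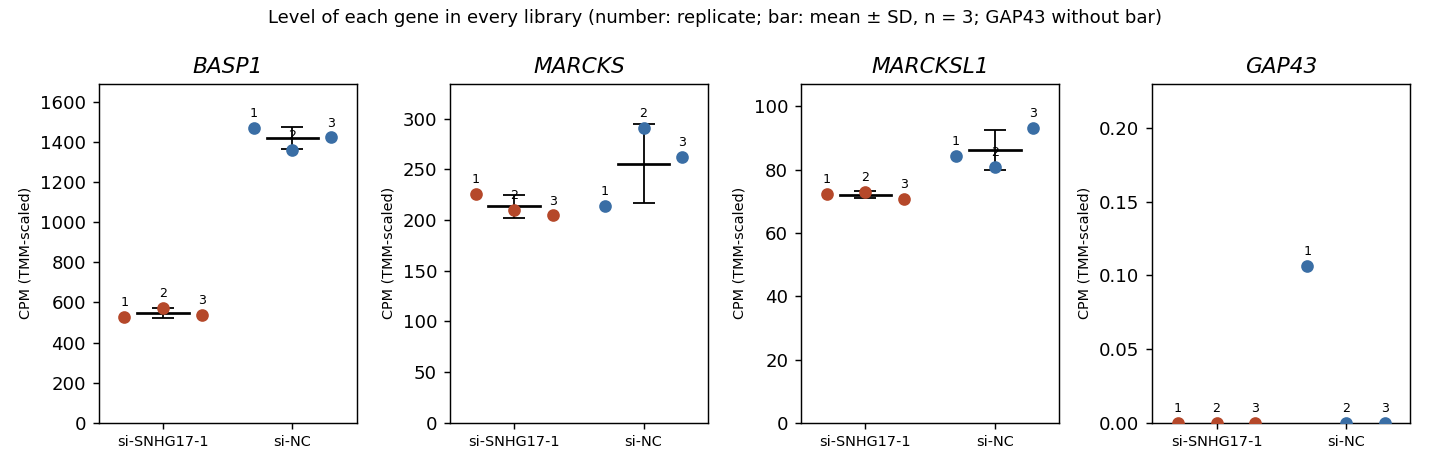
TMM-scaled CPM of the 4 genes in each library, si-SNHG17-1 left and si-NC right, with the mean and SD of 3 libraries per group except for GAP43. BASP1 is at 526 to 574 CPM in si-SNHG17-1 and 1363 to 1470.5 CPM in si-NC, the groups overlap for MARCKS, and GAP43 is at 0 in 5 of 6 libraries.

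**Figure D3:**
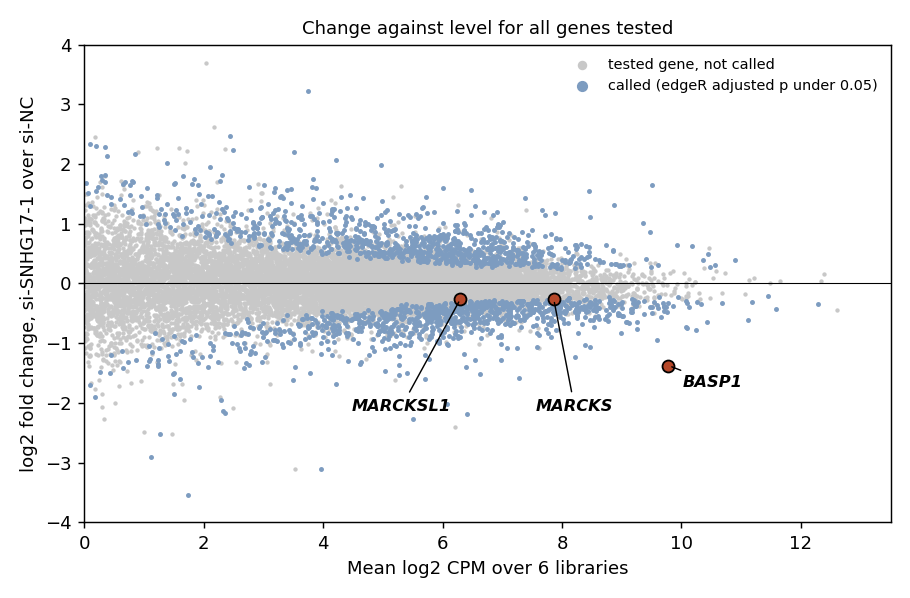
log2 fold change (si-SNHG17-1 over si-NC) against mean log2 CPM over 6 libraries for 15250 of 18679 tested genes, with called genes in blue and the members in red; 3429 genes with a mean below 0 or a change beyond 4 lie outside the axes. BASP1 lies at −1.38, and MARCKS and MARCKSL1 (both −0.26) lie near the lower quartile of all genes tested (−0.27).

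To set the members beside one another, CPM was divided by the length of annotated exons (GENCODE 29), which is 2217 bases for BASP1, 4275 for MARCKS and 1699 for MARCKSL1. On this scale BASP1 averaged 247 ± 11.1 CPM per kb in si-SNHG17-1 and 639.9 ± 24.4 in si-NC. MARCKS averaged 49.9 ± 2.62 CPM per kb in si-SNHG17-1 and 59.8 ± 9.12 in si-NC, and MARCKSL1 42.4 ± 0.664 in si-SNHG17-1 and 50.7 ± 3.71 in si-NC (SD, n = 3 each). The order in level was BASP1, MARCKS, MARCKSL1 and GAP43 in every library, and in si-NC replicate 1 MARCKS and MARCKSL1 were close, at 49.98 and 49.7 CPM per kb. The 2 neighbours in that order, MARCKS and MARCKSL1, stood at a ratio of 1.18 ± 0.0551 in si-SNHG17-1 and 1.18 ± 0.218 in si-NC.

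The summed level of the family was 333, 351 and 333 CPM per kb in si-SNHG17-1 libraries, against 763, 730.3 and 758 in si-NC libraries. The sum was thus 339 ± 10.5 in si-SNHG17-1 and 750.4 ± 17.6 in si-NC, and the groups did not overlap. BASP1 made up 72.7% ± 1.27 of the sum in si-SNHG17-1 and 85.3% ± 1.47 in si-NC, so it stayed the main member in both. BASP1 exceeded MARCKS 4.95 ± 0.411 times per length in si-SNHG17-1 and 10.9 ± 2.15 times in si-NC. It exceeded MARCKSL1 5.81 ± 0.230 times in si-SNHG17-1 and 12.6 ± 0.853 times in si-NC. The log2 fold change of BASP1 was lower than that of MARCKS and of MARCKSL1 by the same margin (differences of −1.12 and −1.12).

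**Figure D4:**
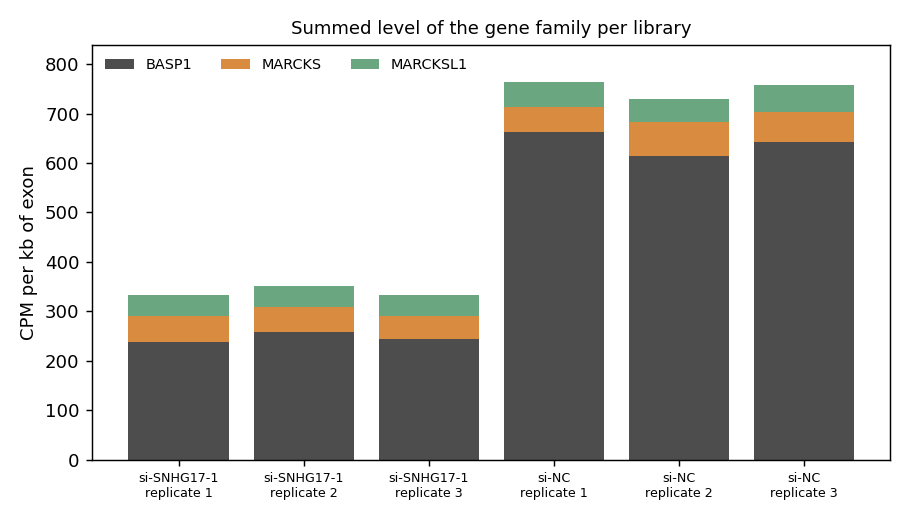
Summed CPM per kb of exon of BASP1, MARCKS and MARCKSL1 in each library, si-SNHG17-1 left and si-NC right; GAP43 is too low to show. The bars reach 333 to 351 in si-SNHG17-1 and 730.3 to 763 in si-NC, and most of the gap between groups is in the BASP1 part.

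By CPM per kb, BASP1 ranked 82 of all tested genes in si-SNHG17-1 and 20 in si-NC. Among the 100 other genes with the highest CPM per kb in si-NC, 6 were called higher and 42 lower, where 5.25% and 5.21% of all genes tested were. Their median log2 fold change was −0.22, against −0.00 over all genes tested. Their log2 fold changes ran from −0.83 to 0.64, none as low as that of BASP1, which was chosen with this contrast known. In si-NC these 100 genes ranged from 19.3 to 7295 CPM, so they were not matched to BASP1 in CPM. Over all genes tested, 1.46% had a lower log2 fold change than BASP1. MARCKS ranked 870 in si-SNHG17-1 and 711 in si-NC, and MARCKSL1 ranked 1079 in si-SNHG17-1 and 877 in si-NC.

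BASP1 (ENSG00000176788.8) spans chromosome 5 from 17065598 to 17276843 on the plus strand of GRCh38, and its whole printed promoter window lies in an exon of AC026790.1, an antisense gene of the minus strand. The exons of both genes share 75 bases, from 17216823 to 17216897, beginning at the RefSeq start used for that window. This start lies inside the annotated span of BASP1 and not at its lower end. Which of the 3 annotated BASP1 transcripts the cells used was not measured. Whether the authors counted by strand is not given in the sources used here. AC026790.1 had 158, 223 and 125 counts in si-SNHG17-1 and 78, 162 and 131 in si-NC, below 1% of the counts of BASP1 in every library. Its log2 fold change was 0.54 (SE 0.27, edgeR adjusted p = 0.248), the opposite sign to BASP1. The nearest tested coding gene on the lower side, MYO10, an unconventional myosin of filopodia 129 kb away, was at 381 ± 16.9 CPM in si-SNHG17-1 and 394 ± 25.8 CPM in si-NC (log2 fold change −0.05, edgeR adjusted p = 0.731). On the higher side the nearest tested coding gene was the cadherin gene CDH12, 4474 kb away, at 2.09 CPM in si-SNHG17-1 and 1.29 CPM in si-NC (edgeR adjusted p = 0.416).

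MARCKS (ENSG00000277443.2, chromosome 6, 113857362 to 113863471, plus strand) had as its nearest tested coding neighbours HDAC2, a histone deacetylase 69.6 kb away, and LAMA4, a laminin gene 1602 kb away. HDAC2 stood at 151, 144 and 156 CPM in si-SNHG17-1 and 152, 198 and 166 CPM in si-NC, with replicate 2 the highest of si-NC, as for MARCKS (log2 fold change −0.20, edgeR adjusted p = 0.286). LAMA4 averaged 1.39 CPM in si-SNHG17-1 and 0.770 CPM in si-NC (edgeR adjusted p = 0.248). MARCKSL1 (ENSG00000175130.6, chromosome 1, 32333832 to 32336379, minus strand) ends 197 bases from the end of HDAC1, a histone deacetylase gene on the plus strand that runs toward it. HDAC1 rose where MARCKSL1 was lower, as described with the BASP1 partners, and TSSK3, a testis kinase gene on the other side, was at 6.42 CPM in si-SNHG17-1 and 5.61 CPM in si-NC (edgeR adjusted p = 0.673). GAP43 (ENSG00000172020.12) lies on chromosome 3 from 115623324 to 115721490.

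The genes whose log2 CPM followed each member most closely over the 6 libraries were found by Pearson's r among 10282 named genes with a mean of at least 10 CPM. For BASP1 these were RPL26, a ribosomal protein gene, ABCA2, a lipid transporter gene, and ALPPL2, an alkaline phosphatase gene, each with r = 0.999. All 3 had smaller changes than BASP1, with log2 fold changes of −0.52, −0.66 and −0.67 (edgeR adjusted p = 0.00275, 0.00265 and 0.00263), and ALPPL2 has near-identical paralogs. For MARCKS they were the Rab GTPase gene RAB2B (r = 0.997), the Mediator subunit gene MED31 (0.992) and the mitochondrial import gene TOMM20 (0.986), none of them called by edgeR with all libraries. Without si-NC replicate 1, edgeR called RAB2B (log2 fold change −0.92, adjusted p = 0.0264) and TOMM20 (−0.30, adjusted p = 0.0465) lower. DESeq2 called RAB2B with all libraries (adjusted p = 0.0450). For MARCKSL1 they were TOE1 (0.998), RPL13 (0.997) and NAA20 (0.997), and of these only NAA20, a subunit of an N-terminal acetyltransferase, was called (log2 fold change −0.47, edgeR adjusted p = 0.0283). Of the fits that omit a library, NAA20 was called in 1, that omitting si-NC replicate 2, and the largest edgeR adjusted p was 0.109, on omitting si-SNHG17-1 replicate 3. Between members r was 0.91 for BASP1 with MARCKSL1, 0.63 for BASP1 with MARCKS and 0.58 for MARCKS with MARCKSL1. These values describe 6 libraries that share the group difference, and they have no p-value.

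The other genes of the pathway were followed in 9 lists with 101 distinct tested genes, of which 8 rose and 7 fell at a median log2 fold change of −0.07. That is 15 of 101, where 10.5% of all genes tested were called. None of the 15 reached the fall of BASP1, itself chosen with this contrast known, the lowest being PIP4K2C at −0.97. The lists were chosen with earlier results of these data known, and their counts are a description.

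Protein kinase C phosphorylates the basic domain of all 4 proteins. Of 7 tested isoform genes 3 were called lower, where 5.21% of all genes tested were, at a list median of −0.22. PRKCH, the eta isoform, had 33.2, 29.7 and 35.6 CPM in si-SNHG17-1, against 57.8, 63.2 and 53.8 CPM in si-NC, a log2 fold change of −0.83 (SE 0.11, edgeR adjusted p = 0.00584). The groups did not overlap, and PRKCH kept its call whichever library was omitted. PRKCA, the alpha isoform, stood at 76.8 CPM in si-SNHG17-1 and 99.7 CPM in si-NC (−0.38, adjusted p = 0.0220), and PRKCD, the delta isoform, at 35.3 and 46.4 CPM in the same order (−0.39, adjusted p = 0.0419, both edgeR). PRKCA lost the edgeR call when any of the si-SNHG17-1 replicates was omitted (adjusted p = 0.0966, 0.0755 and 0.0724 for replicates 1, 2 and 3), and PRKCD lost it whichever library was omitted (0.0671 to 0.166). The most abundant isoform not called was PRKCI, at 88.7 CPM in si-SNHG17-1 and 103 CPM in si-NC.

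Calmodulin competes with PIP2 for the basic domain. Its gene CALM3 rose to 187 ± 5.32 CPM in si-SNHG17-1, against 127 ± 3.43 CPM in si-NC (log2 fold change 0.56, edgeR adjusted p = 0.00423), and kept its call whichever library was omitted. CALM2 averaged 255 CPM in si-SNHG17-1 and 311 CPM in si-NC and was not called. Of 3 tested calmodulin genes 1 was called, where 10.5% of all genes tested were. Of 5 tested genes for related membrane substrates 1 was called, where 10.5% of all genes tested were. In this list 3 log2 fold changes were positive and 2 negative. The called gene AKAP12, a myristoylated kinase scaffold, rose to 32.5 CPM in si-SNHG17-1, against 17.1 CPM in si-NC (log2 fold change 0.92, edgeR adjusted p = 0.0188). Of the fits that omit a library, AKAP12 was called in 1, that omitting si-NC replicate 1, and the largest edgeR adjusted p was 0.0641, when si-SNHG17-1 replicate 3 was omitted. The adducin gene ADD1 averaged 156 CPM in si-SNHG17-1 and 123 CPM in si-NC and was not called.

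Genes that make or turn over PIP2, the lipid these proteins sequester, gave 2 higher and 1 lower call among 28 tested, a share near the 10.5% of all genes tested, at a median of −0.07. PIP4K2C, a phosphoinositide kinase gene, fell to 45.9, 42.7 and 39.6 CPM in si-SNHG17-1, against 93.1, 83.7 and 74.2 CPM in si-NC (log2 fold change −0.97, edgeR adjusted p = 0.00371), and kept its call with any library left out. The phospholipase C genes PLCG1 and PLCB3 rose by 0.39 and 0.38 on the log2 scale (edgeR adjusted p = 0.0248 and 0.0380). Of the fits that omit a library, PLCG1 was called only when si-NC replicate 1 was omitted, with an edgeR adjusted p of at most 0.0869 (si-SNHG17-1 replicate 2 omitted). PLCB3 was called in none of those 6 fits, with an edgeR adjusted p of at most 0.113 on omitting that same library. PLCD3, the most abundant gene of this list not called, had 263 CPM in si-SNHG17-1 and 288 CPM in si-NC.

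The enzymes that attach or remove the lipid anchors gave 1 call among 4 genes for N-myristoylation and 4 among 26 for palmitoylation, where 10.5% of all genes tested were called. Of the 4 genes for N-myristoylation, METAP1, a methionine aminopeptidase that exposes the N-terminal glycine, fell to 50.6 CPM in si-SNHG17-1, against 73.1 CPM in si-NC (log2 fold change −0.53, edgeR adjusted p = 0.0190). It lost the edgeR call when any of the si-SNHG17-1 replicates was omitted (adjusted p = 0.0780, 0.0612 and 0.0564 for replicates 1, 2 and 3). The myristoyltransferase gene NMT1 was at 79.7 CPM in si-SNHG17-1 and 77.2 CPM in si-NC, NMT2 at 19.2 CPM in si-SNHG17-1 and 25.3 CPM in si-NC, and METAP2 at 83.1 CPM in si-SNHG17-1 and 94.96 CPM in si-NC, and none of them was called by edgeR. DESeq2 called NMT2 lower (log2 fold change −0.40, DESeq2 adjusted p = 0.0288). Of 26 tested palmitoylation genes 2 rose and 2 fell, at a median of 0.03. The palmitoyltransferase genes ZDHHC16 and ZDHHC18 rose by 1.19 and 0.86 on the log2 scale (edgeR adjusted p = 0.00185 and 0.0115) and kept their calls with any library left out. ZDHHC3, a palmitoyltransferase, and LYPLA2, a thioesterase that removes palmitate, were lower (−0.43 and −0.61, edgeR adjusted p = 0.0120 and 0.0259). ZDHHC3 lost the edgeR call when any si-SNHG17-1 replicate was omitted (adjusted p = 0.0643, 0.0569 and 0.0564 for replicates 1, 2 and 3), and LYPLA2 kept it in 1 such fit, that omitting si-NC replicate 2 (up to 0.0939, on omitting si-SNHG17-1 replicate 1). The depalmitoylating enzyme gene PPT1, the most abundant of the list not called, was at 290.0 CPM in si-SNHG17-1 and 278 CPM in si-NC.

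WT1, the transcription factor that BASP1 is known to corepress, had 0 counts in all 6 libraries, a count that leaves room for at most 0.0977 CPM in the shallowest library. Among the other corepressor partners, HDAC1 rose to 144, 151 and 143 CPM in si-SNHG17-1, against 89.8, 82.2 and 82.2 CPM in si-NC (log2 fold change 0.79, edgeR adjusted p = 0.00206), a call that held whichever library was omitted. The chromatin remodeller gene SMARCA4 averaged 293 CPM in si-SNHG17-1 and 246 CPM in si-NC, and the prohibitin gene PHB 164 CPM in si-SNHG17-1 and 159 CPM in si-NC, neither of them called. Thus 1 of 3 tested genes of this list was called. Where 10.5% of all genes tested were called, 1 of 17 tested genes known as WT1 targets was, at a median of −0.12. This was AREG, the gene of amphiregulin (a ligand of the EGF receptor), at 23.4, 23.5 and 26.6 CPM in si-SNHG17-1 and 5.55, 5.13 and 5.25 CPM in si-NC (log2 fold change 2.21, edgeR adjusted p = 0.000413). EGFR, the most abundant of that list not called, had 633 CPM in si-SNHG17-1 and 739 CPM in si-NC. Without si-NC replicate 3, CDKN1A of that list was also called, lower by −0.38 (adjusted p = 0.0294).

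Membrane raft scaffolds, which mark the membrane regions where these proteins gather, showed no call by edgeR among 8 tested genes. Since 10.5% of all genes tested were called, 8 genes are too few to set this apart from that share. DESeq2 and limma-voom gave no call either, and 1 gene had an unadjusted edgeR p under 0.05. CAVIN1, the most abundant, stood at 527 ± 4.52 CPM in si-SNHG17-1 and 533 ± 60.5 CPM in si-NC. Without si-NC replicate 2, CAV2 was called higher (log2 fold change 0.83, edgeR adjusted p = 0.0133).

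**Figure D5:**
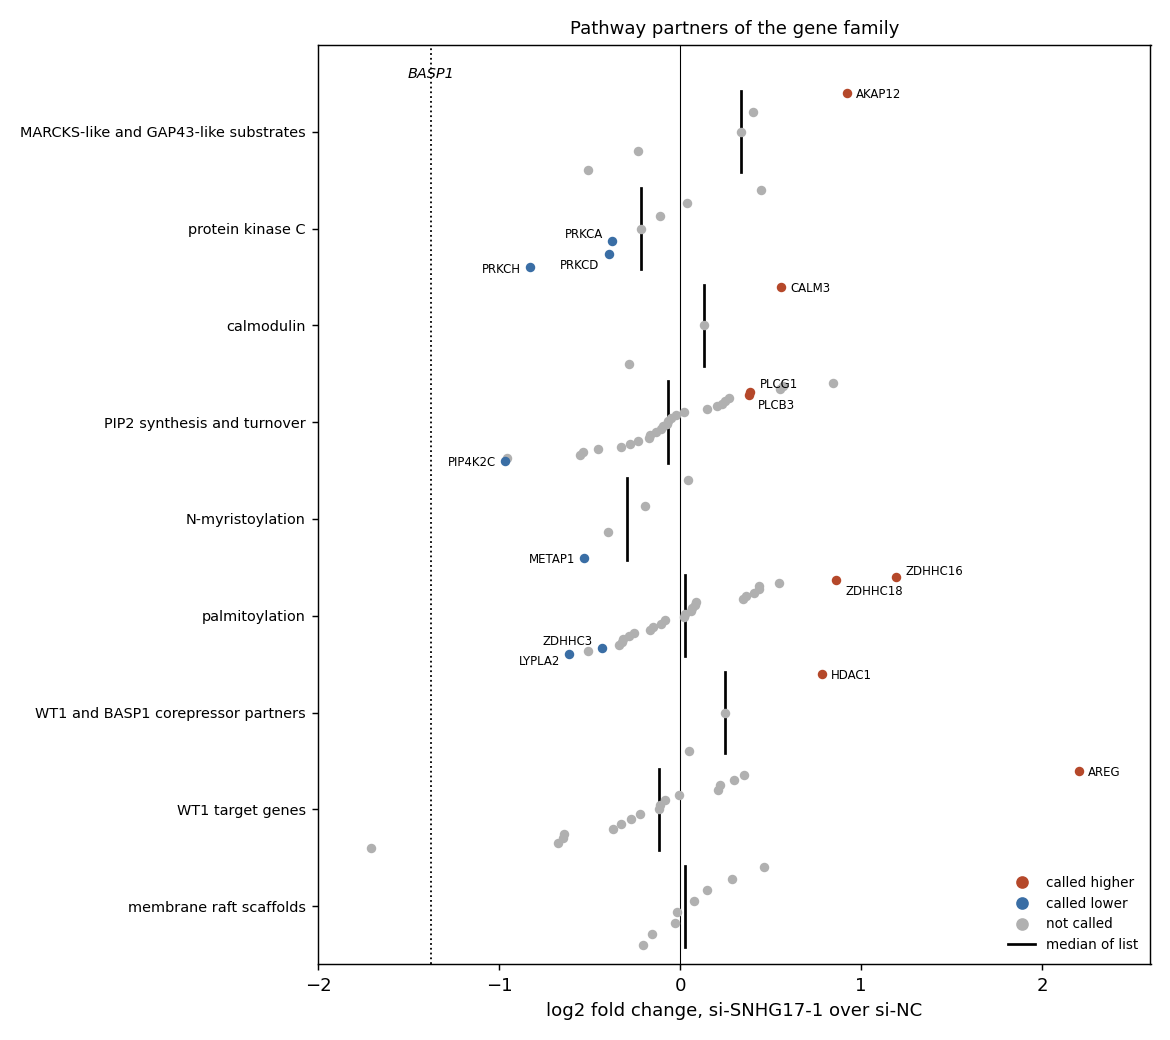
log2 fold change (si-SNHG17-1 over si-NC) of every tested gene in the 9 pathway lists, coloured by edgeR call, with the list median as a bar and BASP1 as a dotted line. Called genes lie on both sides of 0, from PIP4K2C (−0.97) to AREG (2.21), and the point of CDH1 at −1.71, a gene under 1 CPM that was not called, is the only one beyond BASP1.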

How the data were processed

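Whole-number counts per gene were deposited by the authors in 1 table of 58243 genes for 6 libraries, 3 per group, with group and replicate number taken from each title. Reads were aligned with HISAT2 to GRCh38, per the submitters' processing notes; the counting program, annotation release and strand setting were not given in the sources used here. Exon lengths and gene types came from GENCODE 29 (57980 identifiers matched), and promoters from RefSeq (GRCh38.p14). Summed over rows labelled as the mitochondrial chromosome, counts were 0 in every library. Whether the table holds such rows was not checked, so this is not a measured level.

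The counts were filtered with filterByExpr (minimum count 10, minimum total 15), scaled with TMM and compared by edgeR 4.0.16 in R 4.3.3 (quasi-likelihood F test, Benjamini-Hochberg adjustment over 18679 genes). The script was checked on simulated data. A standard error is the size of the fold change (log2) over the square root of F. Likeness used log2 CPM with a prior count of 2. Alternatives were median-of-ratios factors, total counts, 2 other filters, DESeq2 1.42.0, limma-voom 3.58.1, a replicate block and each library left out.

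The members and lists were chosen with earlier results of these data known. The genes named are the members, up to 4 called genes per list and direction and the most abundant gene not called, exon-overlapping and neighbouring genes, and the 3 most alike. CDH1, CDKN1A, CAV2, NMT1, NMT2, PHB, TUBB3, SNAP25, MAP2 and pseudogene copies were added after their values were seen. The values of 1 gene on the pathway lists are not reported here.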

Additional observations from a re-analysis of the deposited data

How the results depend on the processing

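BASP1 was lower in every alternative, with log2 fold changes of −1.38 to −1.33, and −1.40 to −1.34 with a library left out. These values are a description, since the gene was chosen with this contrast known. MARCKS gave −0.37 to −0.16 and MARCKSL1 −0.30 to −0.20 with a library left out, and total counts gave −0.22 for both. With a library left out the calls over all genes ranged over 313 to 694 higher and 264 to 705 lower, where all libraries gave 980 and 974; these fits have fewer libraries. Calls then ranged over 7 to 14 for all pathway lists (15 with all libraries), 0 to 1 for related substrates, 1 to 2 for protein kinase C, 1 to 2 for PIP2 genes, 0 to 1 for N-myristoylation, 2 to 5 for palmitoylation, 1 to 2 for WT1 targets, 0 to 1 for raft scaffolds and 10 to 15 for the 19 named called genes. Without a filter 670 genes were called higher and 627 lower. DESeq2 called 2 N-myristoylation genes and 2 WT1 targets, and total counts called 3 WT1 targets; the cause was not tested. The replicate block gave 273 higher and 259 lower genes, 6 calls over all pathway lists, 0 for related substrates, 1 for protein kinase C, 1 for PIP2 genes, 0 for N-myristoylation, 1 for palmitoylation and 9 of the 19 named genes. Deviations from the group means correlated at −0.04 to −0.02 between libraries of the same number and at −0.02 to 0.04 between libraries of different numbers. These values show no pairing by number, and the labels do not say whether one existed. Depth limits GAP43 and WT1, which stood at or near 0 counts.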
